A study of Schizosaccharomyces pombe with 3 samples.

Results

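The genes described here encode the mitotic cohesin and condensin machinery of fission yeast, Schizosaccharomyces pombe, a unicellular eukaryote that divides by medial fission. They were the genes psm1, psm3, rad21, psc3, mis4, pds5, cut3, cut14, cnd1 and cnd2, chosen by name from the annotation of the array's probe sets. All 10 were present, out of 2896 fission yeast genes named on the array, and each had 1 probe set, with none of the shared type that can hybridise to several genes. The probe set of the budding yeast gene PDS5, written in capitals in the annotation, was kept apart from that of fission yeast pds5. Total RNA was measured on 3 Affymetrix arrays of wild type cells, which formed 1 group. According to the labels, the strain was of the plus mating type (h+). It carried leu1-32 for leucine, ade6-210 for adenine and ura4-DS/E for uracil biosynthesis as marker alleles. Cultures were in YEA, which is a rich liquid medium, and were kept at 30 degrees. No mutant, treatment or time course was compared. Neither the growth stage nor separate cultures for the arrays are stated in the labels, so the spread behind p-values and SDs may be technical.

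Cohesin is a ring-shaped protein complex that holds sister chromatids together from DNA replication until anaphase. Its ring is built from a pair of SMC ATPases, in fission yeast Psm1 and Psm3, closed by a kleisin subunit, Rad21, to which the SA-type subunit Psc3 binds. Mis4, with its partner Ssl3, loads the ring onto DNA, and Pds5 binds the loaded ring and regulates its stability. Condensin has the same architecture, with the SMC subunits Cut3 and Cut14, the kleisin Cnd2 and the HEAT-repeat subunits Cnd1 and Cnd3, and it compacts chromosomes in mitosis. Separase, encoded by cut1, opens cohesin at anaphase by cleaving the kleisin, and securin, encoded by cut2, restrains separase until then.

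Values are MAS5 signals, which are linear intensities scaled by the authors, and their log2. The error given after ± is the SD of the log2 values of a gene (n = 3 arrays). The number of arrays limits the precision. The signal of a probe set depends on its probe sequences as well as on the amount of RNA, so an order of genes by signal describes these probe sets and is not an order of transcript numbers per cell. In a bulk RNA sample, fewer cells carrying a transcript and less of it per cell cannot be told apart.

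All 3 arrays gave usable and similar values. The median fission yeast gene had a signal of 298, 302 and 296 on arrays 1, 2 and 3. Background was set by 2601 probe sets of another yeast on the same arrays, whose 95th percentile of signal was 1.20, 1.24 and 1.18. The 3 P-cell and 7 M-cell markers examined were above that limit, as were 99.9% of all genes, so this count says nothing about mating type. Mean log2 signals of the P-cell markers ran from 3.86 for map2, at percentile 2.97 of all genes, to 8.68 for map3. Those of the M-cell markers ran from 2.14 for mfm2, at percentile 0.656, to 8.42 for mam2. The medians were 7.05 over the P-cell and 7.33 over the M-cell markers. These levels by themselves do not mark the cells as h+, and no test of this was made.

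All of the cohesin and condensin genes gave signal far above background. By limma, 10 of 10 were above the limit, at 6.13 to 8.36 on the log2 scale (adjusted p from 1.2e-13 to 1.3e-11). This share lay at the background of the comparison, since 99.9% of all genes tested were called above the limit, and it is not a result about these genes. Signals of the 10 genes ran from 72.2 to 409 over all arrays. Their median log2 signal was 7.68, beside 8.22 for all 2896 genes, and the median of their percentiles among all genes was 35.1.

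The cohesin genes lay on the lower side of the gene distribution and 3 of the 4 condensin genes on the upper side of its median. All 6 genes of cohesin, its loader and Pds5 were below the median gene in mean signal, as are 50% of all genes by construction, with percentiles from 16.02 to 45.9 and a median log2 signal of 7.51. Of the 4 condensin genes, 1 was below and 3 were above it, with percentiles from 33.0 to 61.3 and a median of 8.38. Among the 3, cut3 lay at percentile 50.4 and was above the median gene on array 1 alone. The split had the same direction on each array: the cohesin median was 7.55, 7.59 and 7.40 on arrays 1, 2 and 3, and the condensin median was 8.41, 8.37 and 8.36. Among the 10 genes, 2 were in the bottom 25% of genes and 0 in the top 25%, where 25% of all genes lie in each by construction. No test was made of either group of genes against other genes.

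**Figure D1:**
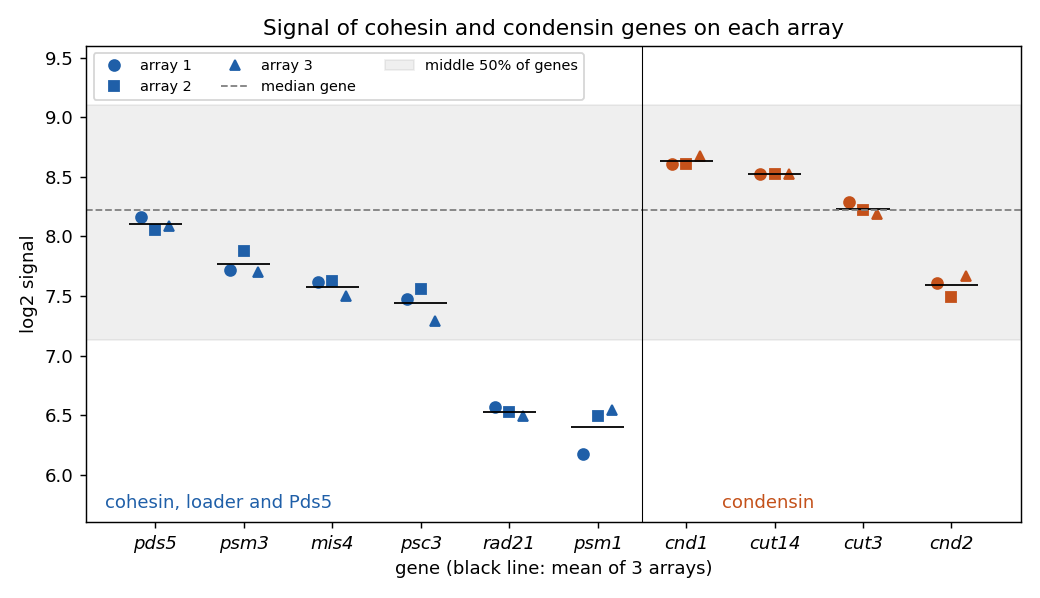
Log2 signal (vertical axis) of each gene (horizontal axis) on arrays 1, 2 and 3 (circles, squares and triangles), with the mean as a black line, the median of all 2896 genes as a dashed line and the range between the quartiles of all genes shaded. The cohesin genes (blue) have means below the dashed line, rad21 and psm1 lie below the shaded range on every array, and of the condensin genes (orange) cnd2 alone lies below the dashed line on all 3 arrays.

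The genes of the cohesin SMC pair had clearly separate signals. For psm1, the Smc1-type ATPase of cohesin (probe set 1777113_at), the signal was 72.2 on array 1, 90.2 on array 2 and 93.2 on array 3. This is a mean log2 signal of 6.40 ± 0.20, the lowest of the 10 genes and at percentile 16.02 of all genes. Array 1 stood below both others, with a difference of -0.35 from their mean on the log2 scale, which lay at percentile 1 among the 200 genes nearest in signal. For psm3, the Smc3-type ATPase that pairs with Psm1 (probe set 1770738_at), the signal was 211, 235 and 209. Its mean log2 signal was 7.77 ± 0.09, at percentile 37.1, and array 2 was the highest. The values of psm1 and psm3 did not overlap on any array.

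The kleisin gene rad21, whose product closes the cohesin ring and is the target of separase, was also among the dimmest (probe set 1772866_at). Its signal was 94.6, 92.1 and 90.2 on arrays 1, 2 and 3, a mean log2 signal of 6.53 ± 0.03 at percentile 17.1. The 3 values lay close together, within 1.05-fold, and their SD lay at percentile 10 among those of the 200 genes nearest in signal. The ranges of rad21 and psm1 overlapped: rad21 was the higher on arrays 1 and 2 and psm1 on array 3.

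The other cohesin genes had intermediate signal. For psc3, which encodes the SA-type subunit of mitotic cohesin (probe set 1774023_at), the signal was 178, 188 and 157, a mean log2 signal of 7.44 ± 0.14 at percentile 30.0. Array 3 was the lowest, with a difference of -0.22 from the mean of the others on the log2 scale. For mis4, the loader (probe set 1776320_at), the signal was 196, 197 and 181, or 7.58 ± 0.07, again with array 3 lowest. For pds5 (probe set 1772213_at) it was 287, 266 and 272, or 8.10 ± 0.06 at percentile 45.9, the highest of the cohesin genes on every array.

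Of the condensin genes, cnd1, cut14 and cut3 were the 3 brightest of the 10. The HEAT-repeat subunit gene cnd1 (probe set 1774278_at) had a signal of 391, 390 and 409 and a mean log2 signal of 8.63 ± 0.04, at percentile 61.3. The Smc2-type ATPase gene cut14 (probe set 1778540_at) gave 368, 369 and 369, a mean log2 signal of 8.53 with an SD of 0.0029. On the deposited scale, that SD was the smallest of all 2896 genes. An SD between arrays depends on how the arrays are scaled, and this rank is given for that scale only. The Smc4-type ATPase gene cut3 (probe set 1777960_at) gave 313, 298 and 292, or 8.23 ± 0.05, at percentile 50.4, next to the median gene. The median gene lay at 298, 302 and 296 on the same arrays, so cut3 was above it on array 1 and below it on arrays 2 and 3.

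The kleisin gene of condensin, cnd2 (probe set 1774405_at), was the dimmest of the condensin genes. Its signal was 195, 180 and 204 on arrays 1, 2 and 3, a mean log2 signal of 7.59 ± 0.09 at percentile 33.0. It was below cnd1, cut14 and cut3 on every array. Its range overlapped that of the cohesin loader gene mis4, which was higher on arrays 1 and 2 and lower on array 3. In the order of mean signal, from cnd1 through cut14, cut3, pds5, psm3, cnd2, mis4, psc3 and rad21 to psm1, 6 of the 9 neighbouring pairs had ranges that did not overlap. The pairs that overlapped were cnd2 with mis4, mis4 with psc3, and rad21 with psm1. Of all 45 pairs among the 10 genes, 42 had the same order on all 3 arrays. Every array carried the same probe sets, and such shares were not computed for pairs of other genes. Both counts are therefore a description and not a result about the 10 genes. The positions of rad21 and psm1 exchanged when array 1 was left out, and those of cnd2 and mis4 when array 3 was left out.

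The spread between arrays of the 10 genes was, in the median, close to that of all genes. The highest array exceeded the lowest by 1.29-fold for psm1 and 1.20-fold for psc3, by 1.13-fold for cnd2, by 1.12-fold for psm3 and by 1.09-fold or less for the others. The median SD of the 10 genes was 0.063, beside 0.061 for all genes. It was 0.041 without array 1, but an SD over fewer arrays is not directly comparable with these. Against the median SD of the 200 genes nearest in signal, 4 of the 10 had a larger SD, namely psm1, psc3, cnd2 and psm3, and 6 had a smaller one. A median has as many genes above it as below it by construction, so this count is not a result about these genes. The SD of psm1, 0.20, exceeded that of 91.5% of its nearest genes, where the median was 0.084. The SD of psc3, 0.14, exceeded that of 88% of its own.

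**Figure D2:**
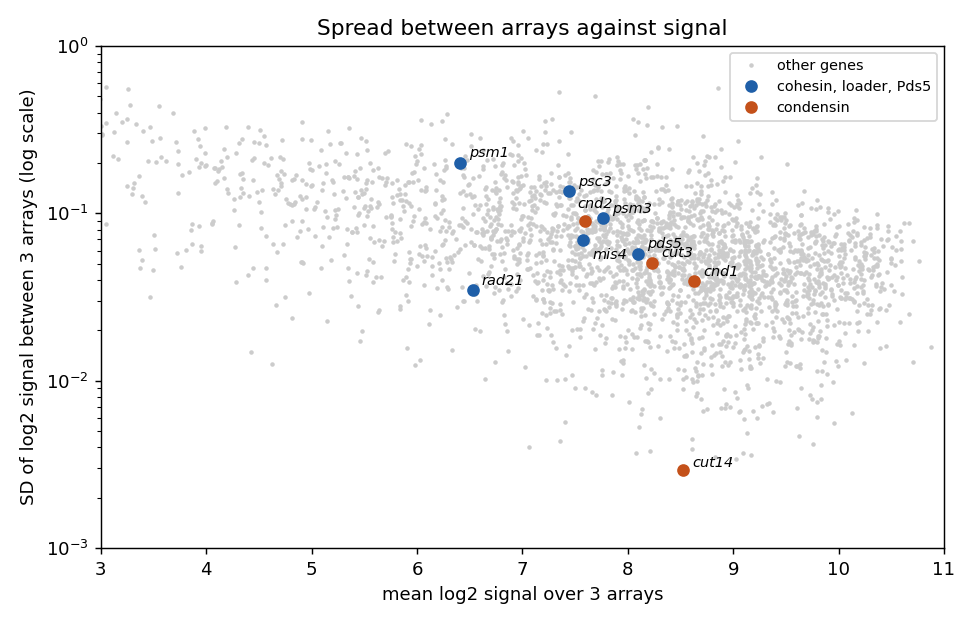
SD of log2 signal between the 3 arrays (vertical axis, log scale) against mean log2 signal (horizontal axis, from 3 upward) for all fission yeast genes in this range (grey), cohesin genes (blue) and condensin genes (orange). Most of the named genes lie within the grey cloud and psm1 lies toward its upper edge. On the deposited scale, cut14, with an SD of 0.0029, lies below all other genes.

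The array with the lowest or highest signal varied from gene to gene, and no difference between the complexes in this was tested. Of the 6 cohesin genes, 4 were lowest on array 3, namely psm3, rad21, psc3 and mis4, beside 34.0% of all genes, and 3 were highest on array 2, beside 31.2% of all genes. The cohesin gene psm1 was highest on array 3. Of the 4 condensin genes, 3 were highest on array 3, namely cut14, cnd1 and cnd2, beside 39.4% of all genes, and for cut14 the arrays differed by only 1.004-fold. Over the 10 genes, the median difference between 1 array and the average of the remaining 2 was 0.039, -0.0014 and -0.037 on the log2 scale for arrays 1, 2 and 3, beside -0.0023, -0.0070 and 0.0099 over all genes. Median centring of the arrays used all 10928 probe sets, not the fission yeast genes alone. With it the shifts of the 10 genes were 0.00073, -0.052 and 0.053, so the sign for array 3 depended on the scaling. Centring adds the same constant to every gene of an array. The shifts over all genes therefore moved by the same amounts, and the gap between the 10 genes and all genes did not change.

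The remaining condensin subunit and the partners of condensin were described from a list of related genes. The list held 6 genes, all above background, as were 99.9% of all genes, with a median log2 signal of 8.40. Condensin's second HEAT-repeat subunit gene, cnd3, gave 396, 427 and 439, or 8.72 ± 0.08. With it, 4 of the 5 condensin subunit genes lay above the median gene in mean signal, cut3 only narrowly, and cnd2 below. By construction, 50% of all genes lie below the median gene. The topoisomerase II gene top2, which acts with condensin in chromosome resolution, gave 351, 362 and 386, or 8.52 ± 0.07. The genes mde4 and pcs1, whose products form a monopolin-like complex at kinetochores, gave 8.57 ± 0.04 and 8.28 ± 0.06. Lower values came from cti1, named for its interaction with condensin and also listed under the names lrp1 and rrp47, at 5.92 ± 0.15 and from the Aurora kinase gene ark1 at 5.44 ± 0.13, both in the bottom 25% of genes.

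Among genes that act on cohesin, the values covered most of the gene distribution. This list held 10 genes, all above background, as were 99.9% of all genes, with a median log2 signal of 7.49. Of the 10, 5 lay in the bottom 25% of genes, beside 25% of all genes. The loader partner ssl3 gave 390, 378 and 399, or 8.60 ± 0.04. The acetyltransferase gene eso1, whose product acetylates Psm3 to establish cohesion, gave 332, 439 and 419, or 8.62 ± 0.22. Array 1 was the lowest for 5 of the 10 genes of this list, eso1 among them, and also for psm1. It was the lowest for 29.7% of all genes. The gene of the cohesin-releasing factor, wpl1, gave 7.09 ± 0.13.

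The genes of the anaphase regulators of cohesin, separase and securin, had separate signals. Separase, cut1, gave 523, 545 and 548, or 9.07 ± 0.04, the brightest of the list at percentile 74.4. Securin, cut2, gave 32.8, 31.2 and 28.4, or 4.94 ± 0.11, at percentile 6.84. The shugoshin genes sgo1 and sgo2, whose products protect centromeric cohesin in meiosis and act in chromosome orientation respectively, gave 8.71 ± 0.05 and 7.89 ± 0.04.

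The meiotic subunit genes rec8 and rec11 were dimmer than their mitotic counterparts rad21 and psc3. The meiotic kleisin gene rec8 gave 34.9, 37.2 and 37.3, or 5.19 ± 0.05, at percentile 7.87, and its highest value lay below the lowest value of rad21, 90.2. The meiotic SA-type subunit gene rec11 gave 27.3, 30.1 and 22.5, or 4.73 ± 0.21, and its highest value lay below the lowest of psc3, 157. The meiotic kinetochore gene moa1, which is not a counterpart of a mitotic subunit, gave 8.39, 10.9 and 7.17, or 3.12 ± 0.31. It was the lowest of the related genes, at percentile 1.52. All 3 were above the background limit on every array, as were 99.9% of all genes, so this says nothing particular about them. These comparisons are between different probe sets, whose brightness may differ. Not every gene of the list with a meiotic role was dim, as the shugoshin gene sgo1 gave 8.71 ± 0.05.

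The genes of the third SMC complex of eukaryotes, Smc5/6, which acts in DNA repair, had a median log2 signal of 8.54. All 9 genes of the list were above background, as were 99.9% of all genes. With 50% of all genes on each side of the median gene by construction, 6 of the 9 lay above it and 3 below. The SMC subunit genes smc5 and smc6 were among those below it, at 6.72 ± 0.11 and 7.85 ± 0.08, together with nse6 at 6.98 ± 0.09. The brightest was nse3 at 9.24 ± 0.04, followed by the SUMO ligase gene nse2 at 9.04 ± 0.03. The kleisin gene nse4 gave 8.63 ± 0.06, while nse5, rad60 and nse1 gave 8.65 ± 0.09, 8.54 ± 0.08 and 8.29 ± 0.05.

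**Figure D3:**
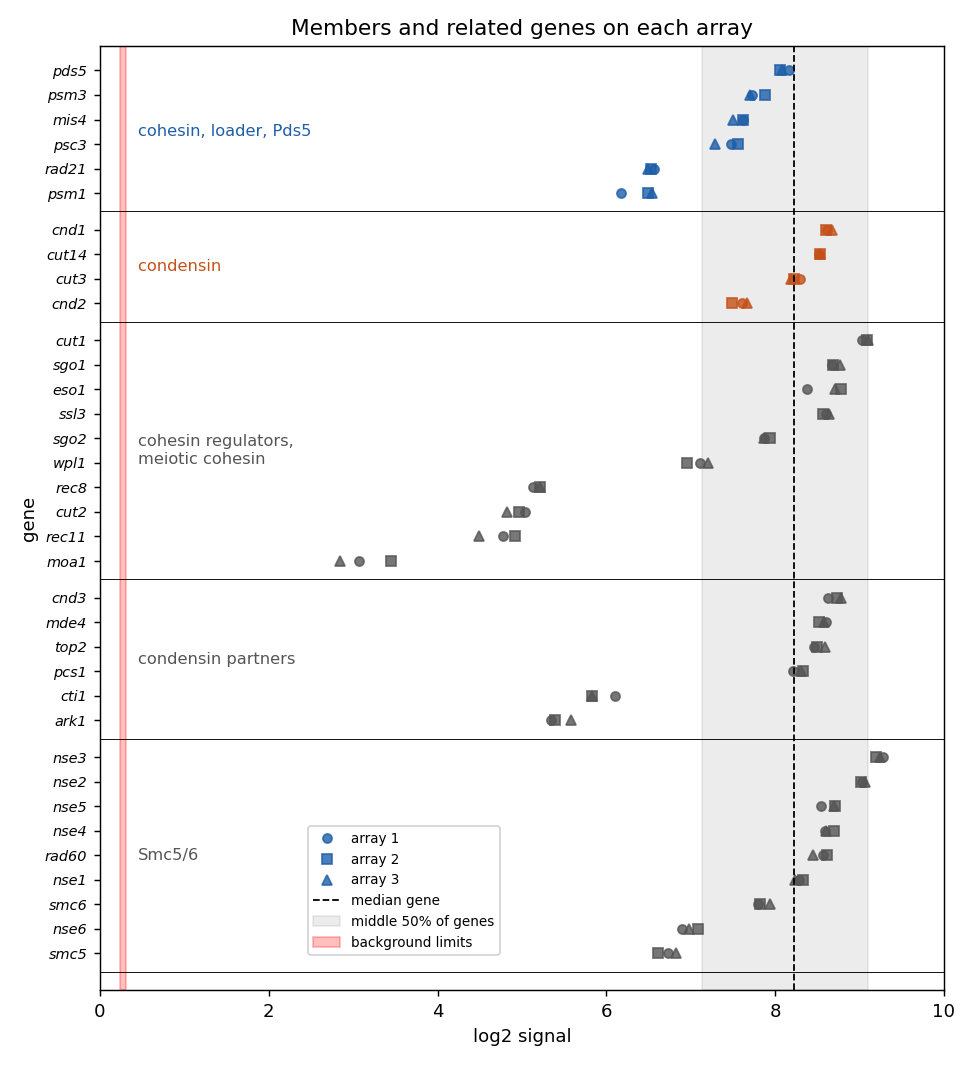
Log2 signal (horizontal axis) on arrays 1, 2 and 3 (circles, squares and triangles) of the cohesin and condensin genes and of 25 related genes (rows), with the median gene dashed, the range between their quartiles in grey and the background limits in red. All genes shown lie to the right of the limits, as do 99.9% of all genes. The genes rec8, cut2, rec11 and moa1 of the cohesin list and cti1 and ark1 of the condensin list lie well to the left of the grey range.

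The arrays also carried probe sets for budding yeast, whose RNA was not part of the samples according to the labels. Of 11 budding yeast counterparts of the cohesin and condensin subunits looked up by symbol, 6 were named in the annotation: SMC1, SMC3, SCC2, PDS5, SMC4 and SMC2. None of the 6 was above the background limit on any array, and their signals ran from 0.045 to 1.17. The limit was set by the other-yeast probe sets, these 6 among them, so that 95% of that set lies below it by construction and the count is only a description. In mean signal, PDS5 and SMC1 lay at percentiles 90.1 and 89.5 of that set. PDS5 gave 1.17, 0.415 and 0.898 on the arrays on which fission yeast pds5 gave 266 or more. SMC1 gave 0.833, 0.467 and 1.05 where psm1 gave 72.2 or more. SMC3, counterpart of psm3, gave 0.060, 0.060 and 0.183, and SMC4, counterpart of cut3, gave 0.045, 0.142 and 0.130. With a limit at the 90th percentile, below which 90% of the set lies by construction, 2 of the 6 passed it on at least 1 array and 0 on every array.

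**Figure D4:**
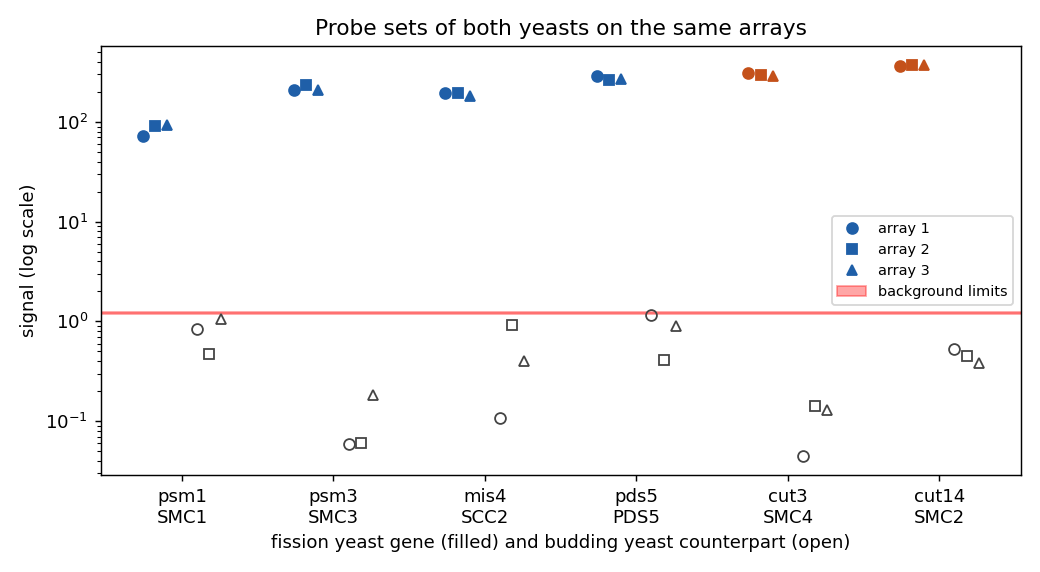
Signal (vertical axis, log scale) on arrays 1, 2 and 3 (circles, squares and triangles) of fission yeast genes (filled, cohesin blue, condensin orange) and of the probe sets of their budding yeast counterparts (open), with the background limits in red. Filled symbols lie at 72.2 and above, and open symbols at 1.17 and below.

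Over the 3 arrays, the genes nearest to the median profile of the 10 genes were cwf14, prp1 and spt4, by Euclidean distance in log2 signal (0.027, 0.035 and 0.042). Their mean log2 signals were 7.69 ± 0.04, 7.69 ± 0.02 and 7.68 ± 0.06. With 3 arrays of 1 group, this measure is one of level.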

How the data were processed

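Each probe set had 1 deposited value per array, a linear signal intensity which the authors computed in MAS5 (version 5.0, per the labels). For scaling target, scanner and filters, nothing is given in the sources used here. The arrays were already on 1 scale, since their means, trimmed by 2% on both sides, were all 150.04. Values therefore entered as log2 without normalization or filter. Of 10928 probe sets, 2914 matched a fission yeast gene of assembly ASM294v3 by gene identifier, which gave 2896 genes after averaging the probe sets of a gene, and 2601 had capitalised symbols outside that table and were treated as those of another yeast. Their 95th percentile was the background limit of each array. Log2 signal minus the limit was tested against 0 with limma 3.58.1 in R 4.3.3 (two-sided moderated test, intercept only), and p-values were adjusted by Benjamini-Hochberg over all genes at a threshold of 0.05. The test was checked on simulated data. Coordinates are not given because no build is named in the files. Percentiles are the share of the 2896 genes with lower signal. Probe sets not matched to a single fission yeast gene were left out of the percentiles and of the median gene. The genes, the related lists and the tests were chosen with earlier results of these data known. The named genes were the 10 genes, all genes of 3 related lists, the budding yeast counterparts and the 3 genes nearest in profile. The alternatives were other limits, quantile normalization, median centring, a pseudocount of 16, omitting each array, a variance trend in limma, a filter at a mean log2 signal of 3, the highest probe set of a gene, and leaving out shared probe sets.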

Additional observations from a re-analysis of the deposited data

How the results depend on the processing

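All 10 genes stayed above the background limit in each of the 12 alternatives (limma adjusted p at most 2.1e-08), and the count over all genes ran from 2859, with the filter, to 2895. With a pseudocount of 16, median log2 signals rose to 7.79 for the 10 genes, 7.63 for cohesin, 8.45 for condensin, 7.62 for the cohesin regulators and 8.47 for the condensin partners, as the added constant raises every value. Median centring was over all probe sets of an array. With it, the shifts of the 10 genes were 0.00073, -0.052 and 0.053 on arrays 1, 2 and 3. Centring moves every gene of an array alike, so their gap to all genes stayed the same. With quantile normalization the shift of the 10 genes on array 3 was 0.0059. Leaving out an array in turn gave a median SD of the 10 genes of 0.041 to 0.053, lowest without array 1. These SDs rest on fewer arrays and are not directly comparable with the SD over all 3. The same values over all genes are not given, and the reason for the lower value without array 1 was not tested. The other 106 values of this kind moved by less than the spread between arrays or, for counts and SDs, by at most 1.5 times. No paired analysis was possible because the 3 arrays form 1 group. Signals were over background for all 10 genes, as for 99.9% of all genes. The number of arrays and the differing brightness of probe sets limit these results.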

Other observations

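None of the 10 genes lay next to another of them on a chromosome in the gene table. Of the 20 protein-coding genes adjacent to them, 12 were measured, with a median log2 signal of 8.31. The neighbours named here were chosen after their values were seen. The lowest was cdt2, whose product serves a ubiquitin ligase, beside psc3, at 5.63. The gene of the replication kinase Hsk1, hsk1, lies beside cnd1 and gave 8.26, and the exonuclease gene exo1 lies beside psm1 and gave 7.08.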
